A study of Mus musculus with 7 samples.

Results

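The miR-30 family was described in mouse kidney through its 5 guide strands on the array, mmu-miR-30a, mmu-miR-30b, mmu-miR-30c, mmu-miR-30d and mmu-miR-30e, written below without the mouse prefix. They were chosen by name from the 611 mouse microRNAs of the array, without the starred passenger strands, and all 5 were among the 213 microRNAs bright enough to be tested. The comparison asks how these strands differ between obstructed and normal kidneys. MicroRNAs were measured in whole kidneys of male mice on 1-colour Agilent arrays, with 1 array per mouse. There were 3 homozygous megabladder mice (mgb-/-, numbered 2, 3 and 4 in the labels) and 4 wild-type mice (mgb+/+, numbered 1 to 4). The labels give an age of 4 weeks for every mouse and their protocol text 3.5 to 4 weeks. The series text counts 4 mutant kidneys. The megabladder mouse numbered 1 was not analysed here. Megabladder mice carry a germline mutation that impairs the smooth muscle of the bladder, which then empties poorly, and urine backs up into the kidneys. The labels call the mutant kidneys obstructed and name no strain. Every cell of the mutant mouse carries the mutation, so obstruction and the mutation itself cannot be told apart, and in whole-kidney RNA fewer cells of a type and less RNA per cell cannot be told apart either.

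A microRNA guide strand is loaded into an Argonaute protein and represses messenger RNAs that pair with its seed, the stretch of bases near its 5′ end. The miR-30 guide strands share a seed, so they can act on largely the same targets, and they are made from hairpins that lie in small genomic clusters. In kidney the family is known for its abundance in tubules and in podocytes, the filtering cells of the glomerulus. In frog embryos it is needed for normal development of the pronephros, and in cultured podocytes TGF-beta, a fibrosis signal, lowers it.

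The mature sequences are shown because the members differ by few bases, which bears on how well array probes can separate them. RefSeq sequences of the GRCm38.p6 build were matched for 3 of the 5 members, listed there under the names below, and miR-30b and miR-30d are named only. Each sequence runs 5′ to 3′, and capitals mark the seed, bases 2 to 8.
miR-30a-5p: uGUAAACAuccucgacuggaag
miR-30e-5p: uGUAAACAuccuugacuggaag
miR-30c-5p: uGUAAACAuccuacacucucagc
The first 12 bases were the same in all 3. With positions counted from 1 at the 5′ end and the base of miR-30a first, miR-30e differed from miR-30a by the single change C13U. miR-30c differed from miR-30a at 5 of 22 positions, C13A, G14C, G18C, G19U and A20C. Among 1679 mature mouse names in the RefSeq table, which lack miR-30b and miR-30d, 4 (0.238%) carried the seed GUAAACA. The fourth was miR-384-5p, looked up after the seed was read, and the array software called it detected on 0 of 7 arrays.

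The hairpins are shown because the array also measured their other arms. Capitals mark the guide strand, near the 5′ end, and the passenger strand, near the 3′ end.
Mir30a: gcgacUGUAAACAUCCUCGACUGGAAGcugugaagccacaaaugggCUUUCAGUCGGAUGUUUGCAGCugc
Mir30c-2: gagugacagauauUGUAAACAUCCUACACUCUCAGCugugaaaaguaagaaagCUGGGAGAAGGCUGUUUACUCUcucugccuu
Mir30e: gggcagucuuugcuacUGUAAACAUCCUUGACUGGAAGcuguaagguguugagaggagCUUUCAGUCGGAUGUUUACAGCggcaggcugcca
In the RefSeq annotation Mir30a and Mir30c-2 lie on the plus strand of chromosome 1. Mir30e lies on the minus strand of chromosome 4 with Mir30c-1, which gives the same miR-30c guide. The array headers name another build, mm9, so positions are not given. miR-30c therefore has 2 source loci, and its level on the array is the sum of both. Mir30b and Mir30d neighbour each other in the same annotation and form a further cluster. The passenger strands of Mir30a and Mir30e differed by the single change G18A.

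Kidney microRNAs checked the tissue label. The tubule and renal markers miR-192, miR-194, miR-204, miR-10a and miR-10b were detected on 7 of 7 arrays, and miR-215 on 0. Of markers of other organs, miR-124 of neurons and miR-206 of skeletal muscle were detected on 0 arrays, and miR-122 of liver, miR-9 of neurons, miR-375 of endocrine cells and miR-133a of muscle on 1 each. miR-1, of heart and skeletal muscle, was detected on 5 of 7 arrays, on 1 of 3 megabladder arrays, and was too dim to be tested. All arrays lay on 1 slide, with 1 slide row for each genotype, so an effect of row cannot be told apart from one of genotype. The scaling factor of an array, the 75th percentile of its signal, was 223.5 to 333.4 scanner units on megabladder and 348.1 to 495.8 units on wild-type arrays, a difference of -0.61 log2 units (p = 0.0286 in a 2-sided exact permutation test, with no smaller value possible over 35 splits). On the first principal component of all tested microRNAs, with 70.8% of the variance, megabladder mice scored -4.10 to -3.58, wild-type mice 1 and 2 scored -1.85 and -0.99, and wild-type mice 3 and 4 stood apart at 7.22 and 6.92. The labels do not say whether the mice came from separate litters, so p-values measure the spread between these samples.

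All 11 probes of the 5 members were well above background on all 7 arrays, and each member was read from 20 spots per array. The spread between spots of a probe was 1.04% to 11.2% of its mean. Levels are mean log2 scaled signals over the probes of a microRNA. The range of a member over the 7 mice was 0.13 (miR-30e) to 0.52 (miR-30d) log2 units, with a median of 0.27, against a median range of 0.61 over all tested microRNAs and of 0.51 over the 53 with signals above 200 units.

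miR-30a gave the brightest signal of the family and ranked 11th of 213. Its level was 10.34, 10.34 and 10.32 in megabladder mice 2, 3 and 4, against 10.25, 10.27, 10.47 and 10.31 in wild-type mice 1 to 4. The megabladder values lay inside the wild-type range, and wild-type mouse 3 was the highest. miR-30c ranked 18th, at 9.69, 9.63 and 9.44 in megabladder mice, against 9.70, 9.71, 9.71 and 9.63 in wild-type mice. Megabladder mouse 4 was the lowest and the groups overlapped. miR-30e ranked 24th, at 9.32, 9.35 and 9.27 in megabladder mice, against 9.40, 9.38, 9.30 and 9.28 in wild-type mice, again with overlap.

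miR-30b and miR-30d, the guides of neighbouring hairpins, were dimmer and ranked 46th and 48th. miR-30b stood at 7.84, 7.99 and 7.71 in megabladder mice, against 7.97, 7.98, 8.04 and 7.91 in wild-type mice. Megabladder mice 2 and 4 were below all wild-type mice, while mouse 3 was among them. miR-30d stood at 7.88, 8.16 and 7.92 in megabladder mice, against 7.77, 7.81, 7.64 and 7.69 in wild-type mice. It was the member in which every megabladder value lay above every wild-type value, with megabladder mouse 3 the highest. The order of signals is not an order of molecules: probes of the same member differed from each other by 1.39-fold (miR-30d) to 7.60-fold (miR-30b) in wild-type mice.

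**Figure D1:**
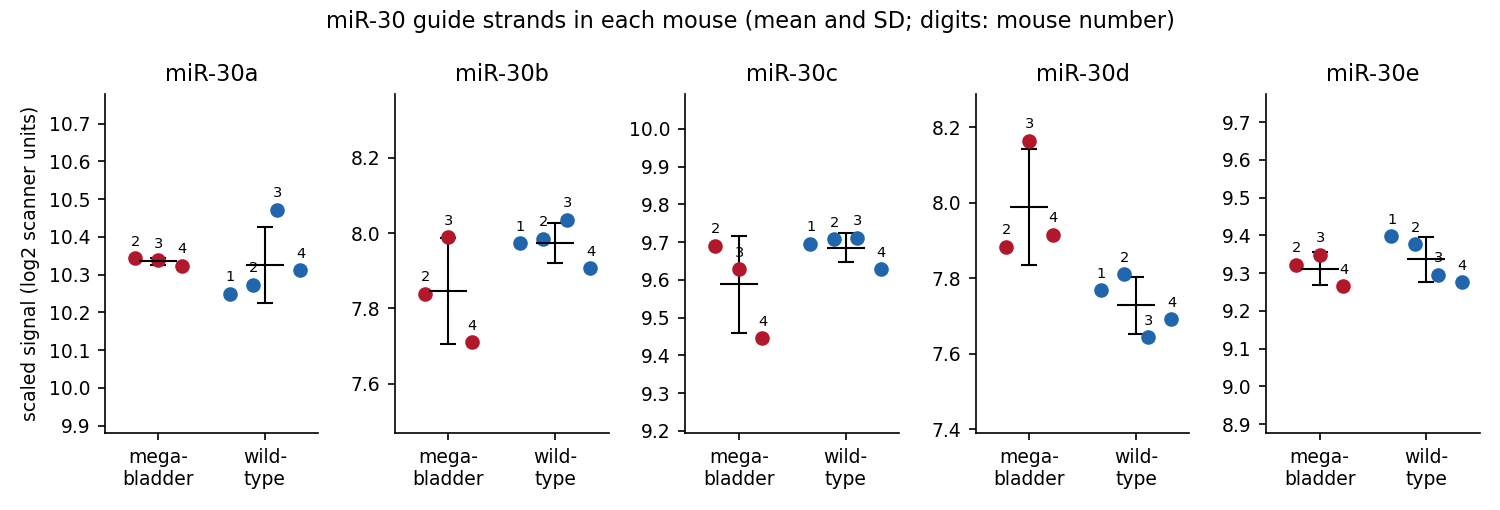
Scaled signal (log2 scanner units) of each miR-30 guide strand in 3 megabladder mice (red, left) and 4 wild-type mice (blue, right), with the mean and SD of each group and the mouse number above each point. Every panel spans the same height, and miR-30d is the member whose groups do not overlap.

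No member changed by the test across all microRNAs. With limma, 0 of 5 members had a Benjamini-Hochberg adjusted p under 0.05, where 7 of all 213 (3.29%) had, 6 of them higher in megabladder kidneys (2.82%), and 1 of 5 had an unadjusted p under 0.05, against 23.0% of all. miR-30d was 1.20-fold higher in megabladder kidneys, at 7.99 ± 0.15 (SD, n = 3) against 7.73 ± 0.075 in wild-type kidneys (SD, n = 4). Its log2 difference was 0.26 with a 95% interval of 0.015 to 0.50 (limma, p = 0.04, adjusted p = 0.214), and the 2-sided exact permutation p was 0.0286. Groups that did not overlap, with megabladder higher, were found for 18.8% of all tested microRNAs, and in either direction for 22.1%, so 1 of 5 is near that background.

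The other 4 members had differences between -0.13 and 0.0087. miR-30b averaged 7.85 ± 0.14 in megabladder and 7.97 ± 0.053 in wild-type kidneys, a difference of -0.13 (interval -0.36 to 0.099, limma adjusted p = 0.519). miR-30c averaged 9.59 ± 0.13 in megabladder and 9.69 ± 0.039 in wild-type kidneys, a difference of -0.098 (interval -0.32 to 0.12, adjusted p = 0.636). With 1 array left out, miR-30b ran from -0.20 (without megabladder mouse 3) to -0.061 (without mouse 4) and miR-30c from -0.15 (without mouse 2) to -0.026 (without mouse 4). miR-30e, near 0, ran from -0.044 to -0.00079. For miR-30a and miR-30e the 95% intervals, -0.20 to 0.22 and -0.22 to 0.17, bound the fold at 0.870 to 1.16 and at 0.861 to 1.12. Changes inside these bounds, in either direction, could not be told from none. The median difference of the 5 members was -0.024, against 0.087 over all tested microRNAs and -0.037 over those above 200 units.

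Single probes of a member gave genotype differences up to 0.079 log2 units apart, the most for miR-30c. The 2 probes of miR-30d differed between genotypes by 0.25 and 0.26. Its dimmer probe read 198.4, 241.8 and 209.4 scaled units in megabladder mice 2, 3 and 4, against 187.3, 189.8, 167.3 and 174.9 units in wild-type mice 1 to 4. Its brighter probe read 280.7, 339.9 and 278.2 units in megabladder mice, against 253.4, 265.6, 239.1 and 244.0 units in wild-type mice. On both probes every megabladder value exceeded every wild-type value. Both probes read the same strand on the same arrays, so they repeat the result for miR-30d and are not replicates. How often single probes of all microRNAs separate the groups in this way was not tested. The 2 probes of miR-30b had -0.14 and -0.12, and those of miR-30c -0.14 and -0.058. The 3 probes of miR-30a had -0.016 to 0.057, of mixed sign.

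**Figure D2:**
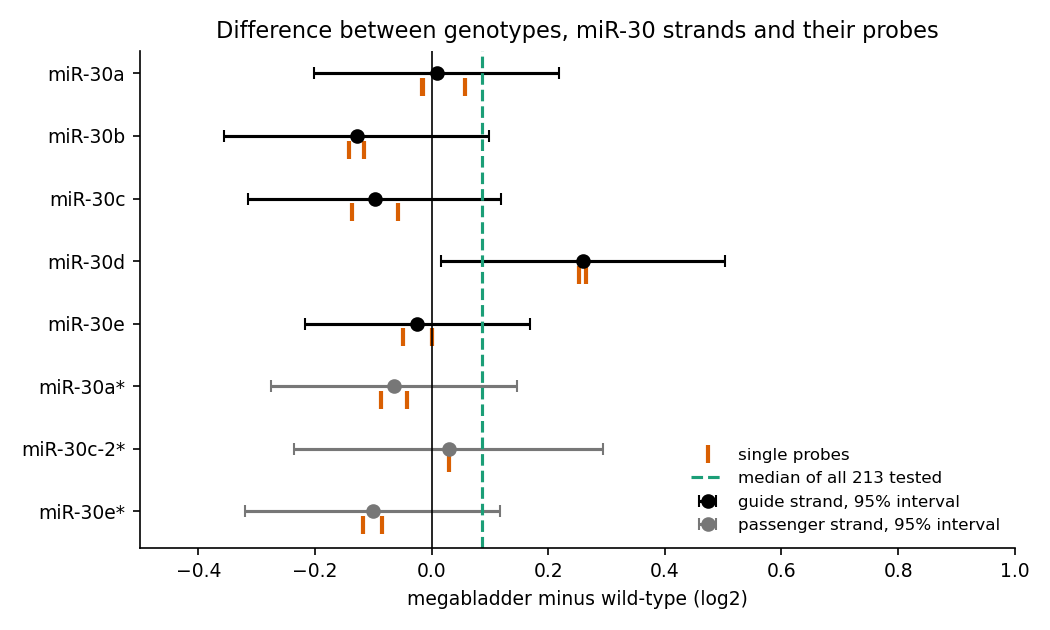
Megabladder minus wild-type log2 difference of each miR-30 guide strand (black) and of the 3 passenger strands above background on all arrays (grey), with limma 95% intervals, single probes as orange ticks and the median of all tested microRNAs as a dashed line. The interval of miR-30d runs from 0.015 to 0.50, and those of the other strands span 0.

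Ratios between members within an array do not depend on the factor that scales the array. The ratio of miR-30d to its cluster partner miR-30b moved furthest. On the log2 scale it was 0.044, 0.17 and 0.20 in megabladder mice 2, 3 and 4, against -0.21, -0.17, -0.39 and -0.22 in wild-type mice 1 to 4. It averaged 0.14 ± 0.085 in megabladder and -0.25 ± 0.098 in wild-type kidneys (SD), a difference of 0.39, or a ratio 1.31-fold higher in megabladder kidneys. All 12 differences between a megabladder and a wild-type mouse were positive, at 0.22 to 0.60. The sign of the ratio itself has no meaning, since different probes are set against each other.

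The ratio of miR-30d to miR-30c was 0.36 higher in megabladder kidneys, at -1.81, -1.46 and -1.53 in megabladder mice, against -1.93, -1.90, -2.07 and -1.94 in wild-type mice. The ratio of miR-30d to miR-30e was 0.28 higher, at -1.33 ± 0.13 in megabladder and -1.61 ± 0.040 in wild-type kidneys. The ratio of miR-30d to miR-30a was 0.25 higher, and its groups were separated by 0.0010 log2 units. Thus in all 4 ratios that hold miR-30d the groups did not overlap, while they overlapped in the 6 others, whose differences ran from -0.10 to 0.14. The 4 share the miR-30d values and are not independent.

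None of the 10 ratios passed after adjustment. With an exact p of at least 0.0286, the 4 ratios that hold miR-30d could not pass over the 10 by themselves. The outcome therefore decides nothing about miR-30d alone. The ratios of miR-30d to miR-30b, miR-30c and miR-30e each had p = 0.0286 in the 2-sided exact permutation test, its lowest possible value, and an adjusted p of 0.0952 over the 10. That to miR-30a had an exact p of 0.114 (adjusted 0.286), and the other 6 had adjusted exact p values of 0.286 to 0.8. Groups that did not overlap were found in 25.5% of all 22578 ratios between tested microRNAs, and in 12.0% of the 1378 between microRNAs above 200 units. The same comparison between probes of 1 member shows how far probes of the same target disagree. Over 7 such probe ratios the difference between genotypes had a median size of 0.048 and a highest size of 0.079. In 2 of the 7 the groups did not overlap. Such ratios cannot show an error that all probes of a member share, such as signal from another member. These sizes therefore do not bound the error between members. Of the 18 ratios between a single miR-30d probe and a single probe of another member, all were higher in megabladder kidneys, by 0.20 to 0.41. In 13 of these 18 the groups did not overlap. The 18 reuse 2 miR-30d probes on the same 7 arrays, so they repeat 1 shift and are not replicates. The shares above are of ratios between microRNAs, and none was taken over all probe ratios.

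**Figure D3:**
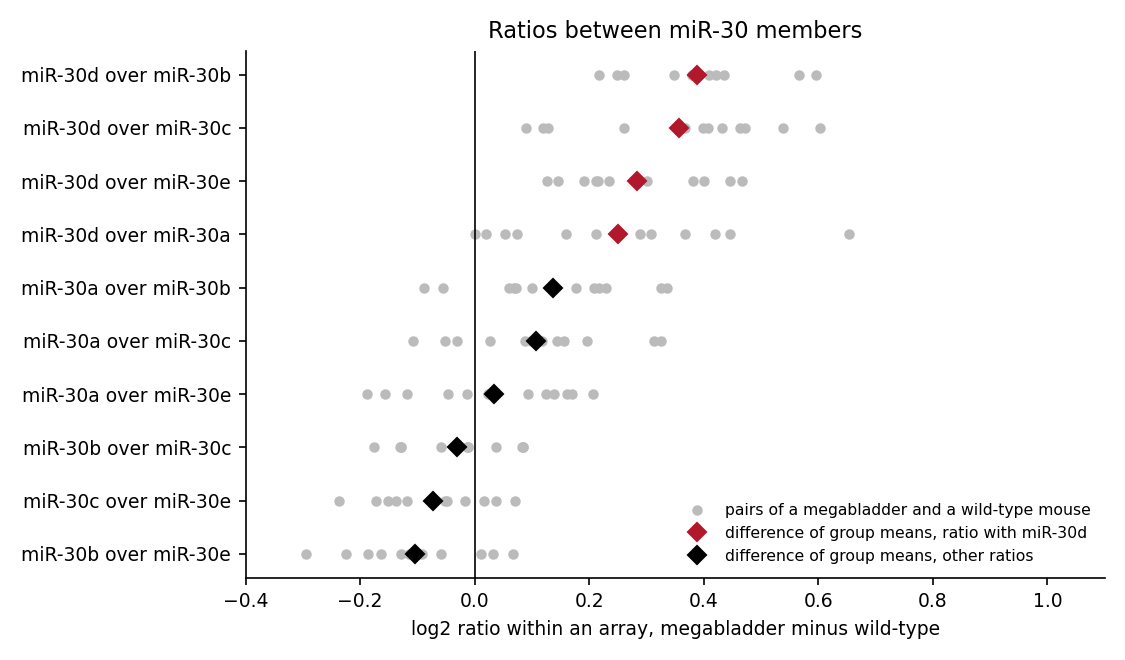
Megabladder minus wild-type difference of the log2 ratio between 2 miR-30 members, with group means as diamonds (red where the ratio holds miR-30d) and the 12 pairs of a megabladder and a wild-type mouse as grey points. All grey points lie above 0 in the 4 ratios with miR-30d, and on both sides of 0 in the 6 others.

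The passenger strands come from the same hairpins and are usually degraded. Of the 5 on the array, miR-30a*, miR-30c-2* and miR-30e* had probes above background on all arrays, while miR-30b* and miR-30c-1* were at the floor on 5 and 3 arrays. None of the 5 passed in limma. miR-30a* stood at 6.67, 6.67 and 6.62 in megabladder mice, against 6.59, 6.71, 6.84 and 6.73 in wild-type mice, a difference of -0.064 (interval -0.28 to 0.15, adjusted p = 0.771). miR-30e* stood at 5.99, 5.97 and 5.81 in megabladder mice, against 6.08, 6.10, 5.93 and 5.98 in wild-type mice, a difference of -0.10 (interval -0.32 to 0.12, adjusted p = 0.626). miR-30c-2* differed by 0.029 (adjusted p = 0.929). Passenger values overlapped between genotypes in all 3.

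The log2 ratio of miR-30a to miR-30a* averaged 3.68 ± 0.016 in megabladder and 3.61 ± 0.046 in wild-type kidneys. The groups did not overlap, and the difference was 0.073 (2-sided exact permutation p = 0.0571, adjusted 0.129 over 3 such ratios). Such a separation was common, found in 25.5% of all ratios between tested microRNAs. The ratio of miR-30e to miR-30e* averaged 3.39 ± 0.062 in megabladder and 3.31 ± 0.036 in wild-type kidneys, a difference of 0.077 with overlap (exact p = 0.0857, adjusted 0.129). That of miR-30c to miR-30c-2* differed by -0.13 (exact p = 0.343). The differences of miR-30a and miR-30e were no larger than 0.079, the highest size between probes of the same member, found for miR-30c. Between its own probes the size reached 0.073 for miR-30a and was 0.048 for miR-30e. The guide to passenger difference of miR-30a was thus near that of its own probes, while that of miR-30e was larger.

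The sign of most single differences depended on how arrays were scaled. Under the scalings with 1 factor per array the order of the members could not change, since all members move alike. Over 5 scalings the median difference of all tested microRNAs ran from -0.62 to 0.087. miR-30d ran from -0.48 to 0.26 and miR-30b from -0.87 to -0.13. Relative to the median of all tested microRNAs, miR-30d was at 0.14 to 0.33 and miR-30b at -0.24 to -0.077 over these scalings. With 1 factor per array these values are nearly fixed in advance. Quantile scaling, the only other kind among these scalings, gave 0.33 and -0.077. With normexp background correction the median of all was 0.42, and relative to it miR-30d turned to -0.16 and miR-30b stood at -0.43. Without megabladder mouse 3, miR-30d was at 0.044 relative to the median. miR-30a (-0.11 to 0.25), miR-30c (-0.21 to 0.041) and miR-30e (-0.14 to 0.17) changed sign with quantile scaling, which can also shift the ratio of bright to dim signals within an array. Unscaled, miR-30b, miR-30c and miR-30e passed in limma as lower in megabladder kidneys (adjusted p = 0.0483 each), beside 68 of 213 microRNAs lower in all.

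**Figure D4:**
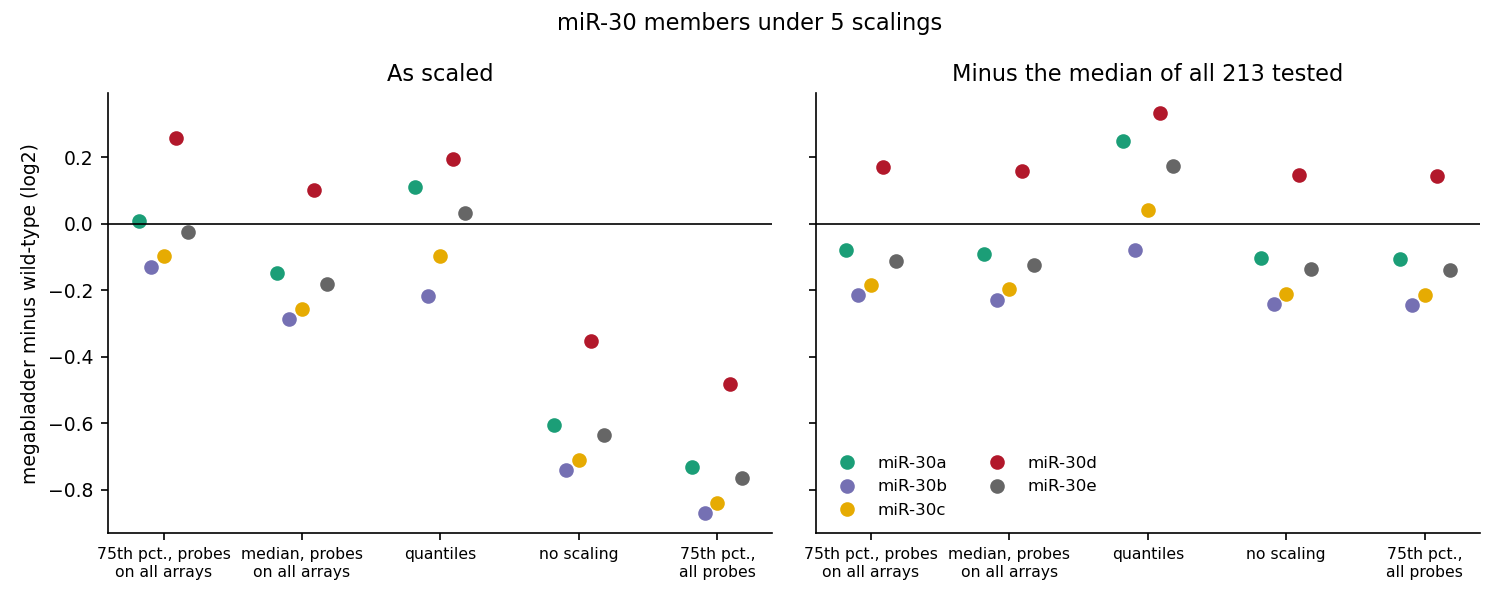
Megabladder minus wild-type log2 difference of the 5 members under 5 scalings, as scaled (left) and after subtracting the median of all tested microRNAs (right). miR-30d is the highest member in each, though only quantiles could change the order. The whole family moves down together with no scaling and with the percentile of all probes.

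Leaving out any of the 7 arrays kept miR-30d at 0.17 to 0.31 and never past the threshold (limma adjusted p = 0.238 to 0.435). The lowest value came without megabladder mouse 3, and moved the difference by over 1.5 times. Without wild-type mice 3 and 4, the arrays that stood apart, miR-30d was 0.20 higher (limma adjusted p = 0.613). Its 4 ratios to other members were then 0.12 to 0.33 higher, with that to miR-30b the highest, against 0.25 to 0.39 with all 7 arrays. With 1 array left out, the lowest of the 4 was 0.16 without megabladder mouse 3 and 0.17 without wild-type mouse 3. It was 0.31 without megabladder mouse 2. Of 20 alternatives, 5 leave the ratios between members as they are and 9 only leave out arrays, which cannot make separated groups overlap. Of the 6 that could change them, keeping outlier spots left the groups apart in all 4 ratios with miR-30d. They were apart in 3 of 4 with total gene signal, normexp or the brightest probe, and in 1 of 4 with quantiles or the deposited value table. Over those 6 the differences of the 4 ratios ran from 0.082 (quantiles) to 0.41, with a lowest value of 0.095 in the deposited value table. The ratio to miR-30b was 0.27 to 0.41 higher in megabladder kidneys over the same 6.

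Profiles over the 7 mice were compared by the root mean square difference of log2 levels after centring each microRNA on its mean. For miR-30a and miR-30e the 3 nearest held the passenger strand of the same hairpin. For miR-30a the nearest non-members of the family were miR-101b (0.033), its own passenger miR-30a* (0.048, rank 2 of 212) and miR-26a (0.061). For miR-30e they were miR-27b (0.043), miR-340-3p (0.049) and its own passenger miR-30e* (0.056, rank 3 of 212). The level of miR-340-3p lay near the floor, at 3.51 to 3.71 over the 7 mice. For miR-30c they were miR-200a (0.027), an epithelial microRNA, then miR-30e* (0.055) and miR-23a (0.068).

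The rank of a cluster partner varied between members. For miR-30b the nearest of all microRNAs was miR-30c (0.061), followed by miR-200a (0.066), miR-30e* (0.081) and miR-23a (0.084). For miR-30e, miR-30c was eighth (0.070), and for miR-30a it was 18th (0.10). For miR-30d, the nearest were let-7i (0.065), miR-345-5p (0.071) and miR-350 (0.078), and its partner miR-30b was 77th of 212 (0.21). The distance grows with how far a microRNA moves, so microRNAs that vary little lie near each other by construction. That between miR-30d and miR-30b also holds the genotype difference given above, and is no separate result. These distances are descriptions over 7 arrays that share a slide and a scaling, with no test.

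Other kidney microRNAs set beside the family also did not pass in limma. Of 13 tested tubule microRNAs 5 were positive and 8 negative, with a median of -0.093. They included miR-26b (-0.20, adjusted p = 0.337), miR-204 (0.50, 0.403) and miR-200a (-0.14, 0.455). Of 5 podocyte and glomerular microRNAs 2 were positive and 3 negative, with a median of -0.050. Among them were miR-24 (0.11, adjusted p = 0.505), miR-146a (-0.15, 0.655) and miR-126-3p (-0.062, 0.799). Lists can share members, as miR-146a is also in the leukocyte list below.

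Markers of other cells were read as summed levels beside the miR-30 values. The sum of 4 urothelial microRNAs was 7.22 to 7.70 in megabladder and 7.20 to 7.31 in wild-type kidneys. Among them were miR-205 at 1.23 (limma adjusted p = 0.0712), miR-31 at 0.44 (0.214) and miR-203 at -0.17 (0.820). The fourth, miR-200c, had the highest level of the 4 in every mouse, so the sum weighs it most. It differed by 0.069 (limma adjusted p = 0.901). The level of miR-205 was 5.61, 4.41 and 4.21 in megabladder mice, against the floor of 3.51 in all 4 wild-type mice. Its groups did not overlap, as for 18.8% of all tested microRNAs with megabladder higher. The array software called miR-205 detected on 6 of 7 arrays, 3 of them megabladder, so the floor does not mean absence. The filter on dim probes asks for 3 arrays, which the megabladder arrays alone can meet. miR-31 was at the floor in megabladder mouse 4 and in wild-type mice 1, 2 and 4, so the size of both differences depends on the floor. The sum of 3 erythroid microRNAs was 10.93 to 11.86 in megabladder and 11.06 to 11.46 in wild-type kidneys. They were miR-486 at 0.32 (limma adjusted p = 0.605), miR-144 at 0.11 (0.906) and miR-451 at 0.045 (0.932). The sum of 7 endothelial microRNAs was 10.90 to 11.10 in megabladder and 10.96 to 11.08 in wild-type kidneys, with miR-126-5p at -0.23 (adjusted p = 0.330), miR-322 at 0.21 (0.598) and miR-503 at 0.24 (0.667). That of 5 leukocyte microRNAs was 7.71 to 7.99 in megabladder and 7.73 to 7.91 in wild-type kidneys, with miR-155 at -0.47 (adjusted p = 0.388) and miR-342-3p at 0.28 (0.470). The smooth muscle pair miR-145 and miR-143 summed to 7.37 to 7.69 in megabladder and 7.23 to 7.57 in wild-type kidneys, at 0.24 (adjusted p = 0.247) and 0.091 (0.771). The groups overlapped in each of these sums, and 0 members of these lists passed. Of 9 microRNAs of other tissues, miR-128 (0.11, adjusted p = 0.779) and miR-7a (0.026, 0.953) were tested. Their part in the miR-30d values was not tested.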

How the data were processed

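Total RNA of whole kidneys, 100 ng per sample, was labelled with Cy3 and read on Agilent mouse arrays, per the labels' protocols. Per the file headers, spot intensity values deposited by the authors came from version 10.7.3.1 of Agilent's Feature Extraction software and the mm9 build. The deposited value table also holds intensity values, scaled by a method not given in the sources used here. Its 532 names before a break in its order were used as an alternative.

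No spot was saturated. Control and outlier spots (3.45% to 3.77%) were left out, and spots of a probe were averaged. Arrays were scaled by their 75th percentile of signal, taken over the 292 probes detected on every array, since 19.0% to 21.8% of 1857 probes were detected. Signals were floored at 11.4 units and put on a log2 scale. A microRNA is the mean of its probes above background on at least 3 arrays, in at least 0.5 of a probe's spots. Genotypes were compared with limma 3.58.1 in R 4.3.3, tested on simulated data, and Benjamini-Hochberg adjustment over 213 microRNAs. Ratios had 2-sided exact permutation tests of the difference in means. The number of arrays limits the precision.

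Members, lists, tests and the rule for named microRNAs were chosen with earlier results of these data known. The rule named all miR-30 strands, up to 3 microRNAs of each list by smallest p, and the 3 nearest profiles of each member. miR-200c was named outside it. Normexp (offset 50) used median spot signals. Alternatives covered scaling, signal, background, filter, probes, floor, outlier spots, variance model, block and left-out arrays.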

Additional observations from a re-analysis of the deposited data

Results flagged for a closer look

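The log2 ratio of miR-30b to miR-30c was -1.68 in wild-type mouse 3, apart from -1.72 in each of the other 3 wild-type mice, and -1.85, -1.64 and -1.73 in megabladder mice 2, 3 and 4. It was the 1 value of 21 levels and ratios that stood apart by Dixon's test in the 4 wild-type mice. Chance alone flags about 1 group in 20. A gap this small stood apart because the other 3 wild-type values were nearly equal.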

How the results depend on the processing

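Members called stayed at 0 in 20 of 21 alternatives and were 3 with no scaling, where 2 passenger strands were also called. Member ratios called stayed at 0 in all 20 alternatives run on them. With an array left out or blocked the smallest exact p is above 0.05. With all 7 arrays the 4 ratios that hold miR-30d could not pass by themselves. These counts therefore say nothing about stability. The count of all microRNAs, 7 as reported, was 69 with no scaling, 28 with the replicate block, 2 with the median, 1 with the deposited value table or without wild-type mice 3 and 4, and 0 with the percentile of all probes, quantiles, total gene signal, normexp, no filter or a floor of 1 (limma, unadjusted p under 0.05 for 107, 45, 26, 53, 40 and 30). Leaving out 1 array gave 0 to 19, with 0 without wild-type mouse 1, 2 or 3 or megabladder mouse 2 (47, 46, 26 and 32 at an unadjusted p under 0.05). Same-numbered megabladder and wild-type mice lay in the same slide column. Their deviations from the group means correlated at -0.21, 0.0066 and 0.21 for mice 2, 3 and 4. So few arrays cannot decide whether same-numbered samples are paired. With the replicate block miR-30d was at 0.27 (limma adjusted p = 0.492) and 0 members were called, as without it.

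miR-30a, near 0 as reported, was negative with the percentile of all probes (-0.73), the median (-0.15), no scaling (-0.60), normexp (-0.069) and the replicate block (-0.017), and ran from -0.017 to 0.057 with an array left out. miR-30d was negative with the percentile of all probes (-0.48) and no scaling (-0.35). miR-30c was positive in the deposited table (0.085), and miR-30e with quantiles (0.034) and total gene signal (0.0047). With no scaling miR-30b had -0.74, miR-30c -0.71 and miR-30e -0.64. The family median moved to -0.76 (percentile of all probes), -0.18 (median), 0.034 (quantiles), -0.64 (no scaling) and 0.063 (deposited table). A single factor per array moves all members alike by construction, and other causes were not tested. The 7 arrays limit what can be seen: the 95% intervals of the members were as wide as 0.38 to 0.49 log2 units.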
